A study of Mus musculus with 5 samples.

Results

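The Wt1 locus was examined for peaks of its own product, the transcription factor WT1, in a mouse kidney-derived cell line. All peaks overlapping a window of 300 kb around Wt1, on chromosome 2 from 104850000 to 105150000 (mm9), were taken from 4 deposited peak lists. The window held 129 of the 622792 peaks of these lists. Wt1 lies on the plus strand, and its start and end were set at about 104966700 and 105013900, rounded positions that were not checked against an mm9 annotation. The resulting span of 47.2 kb compares with a Wt1 length of 47.1 kb in the RefSeq gene table for the later assembly GRCm38. In that table the gene next to Wt1 on the upstream side is Wt1os, a long noncoding RNA gene, with Eif3m and Ccdc73 farther upstream, and Them7 and Rcn1 follow on the downstream side.

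The series used CUT&RUN, in which an antibody bound to chromatin in permeabilised cells tethers micrococcal nuclease, so that the flanking DNA is released and sequenced. The WT1 antibody ab89901 was used on M15 cells, a mesonephric epithelial line of the mouse transformed with polyoma virus large T (2 libraries), and on an M15 line genome edited for the KTS isoforms and labelled KTS-minus (2 libraries). The labels say neither which isoform the KTS-minus cells still make nor whether the line is 1 clone, and nothing says that replicates were separate cultures. The fifth sample, an M15 library made with IgG, was not analysed here, so no control level stands beside the peaks, and neither RNA nor cell identity was measured.

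WT1 is a zinc-finger protein needed for the formation of kidney and gonad and, later, for podocytes, the filtering cells of the glomerulus. Splicing inserts or omits lysine, threonine and serine (KTS) between the last zinc fingers, and the form without KTS is the better DNA binder. WT1 has long been described as a regulator of its own gene, with sites in the Wt1 promoter and in distant control elements, and the antisense transcript Wt1os arises next to the Wt1 promoter.

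The window contained 3 peaks in M15 replicate 1, 18 in M15 replicate 2, 63 in KTS-minus replicate 1 and 45 in KTS-minus replicate 2. These counts followed the order of the whole lists, which held 6440, 60925, 310999 and 244428 peaks. In every list the window was denser than the list as a whole. It held 10.0 peaks per Mb in M15 replicate 1 against 2.44 in the whole list, and 60.0 against 23.1 in M15 replicate 2. KTS-minus replicate 1 had 210 peaks per Mb in the window against 118 in the list, and KTS-minus replicate 2 had 150 against 92.5. The ratio of window to list was thus 4.1 and 2.6 in the M15 libraries and 1.78 and 1.62 in the KTS-minus libraries. It also differed between the 2 M15 libraries, and the lists differ in length, so a difference between lines cannot be told apart from list length. With 2 libraries against 2, it was not tested. Each list was also cut to its 6440 peaks of highest max signal, which removes none from M15 replicate 1. This left 3 window peaks in each library. The next window peak ranked 6475 in M15 replicate 2 and 6542 in KTS-minus replicate 1, just past the cut. Peak values are the authors' coverage, on a scale of each list's own, and were compared only inside a list.

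By position, a peak within 1000 bp of the start was counted as a start peak and any other by the middle of its stretch of max signal, called its top below. M15 replicate 1 had 1 peak at the start, 1 in the gene body, 1 downstream of the gene and none upstream. M15 replicate 2 had 4 upstream, 1 at the start, 5 in the gene body and 8 downstream. KTS-minus replicate 1 had 26 upstream, 1 at the start, 13 in the gene body and 23 downstream, and KTS-minus replicate 2 had 14, 2, 13 and 16. In each list the start interval was the most fully covered of the 4 classes: peaks covered 80.1% and 76.8% of it in the M15 replicates and 100.0% and 89.4% in the KTS-minus replicates. That interval is only 2.0 kb long, so 1 peak can fill most of it. The upstream part is 116 kb, the gene body 46.2 kb and the downstream part 136 kb. The gene body was covered to 4.57% and 13.7% in the M15 replicates and to 65.2% and 29.1% in the KTS-minus replicates.

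**Figure D1:**
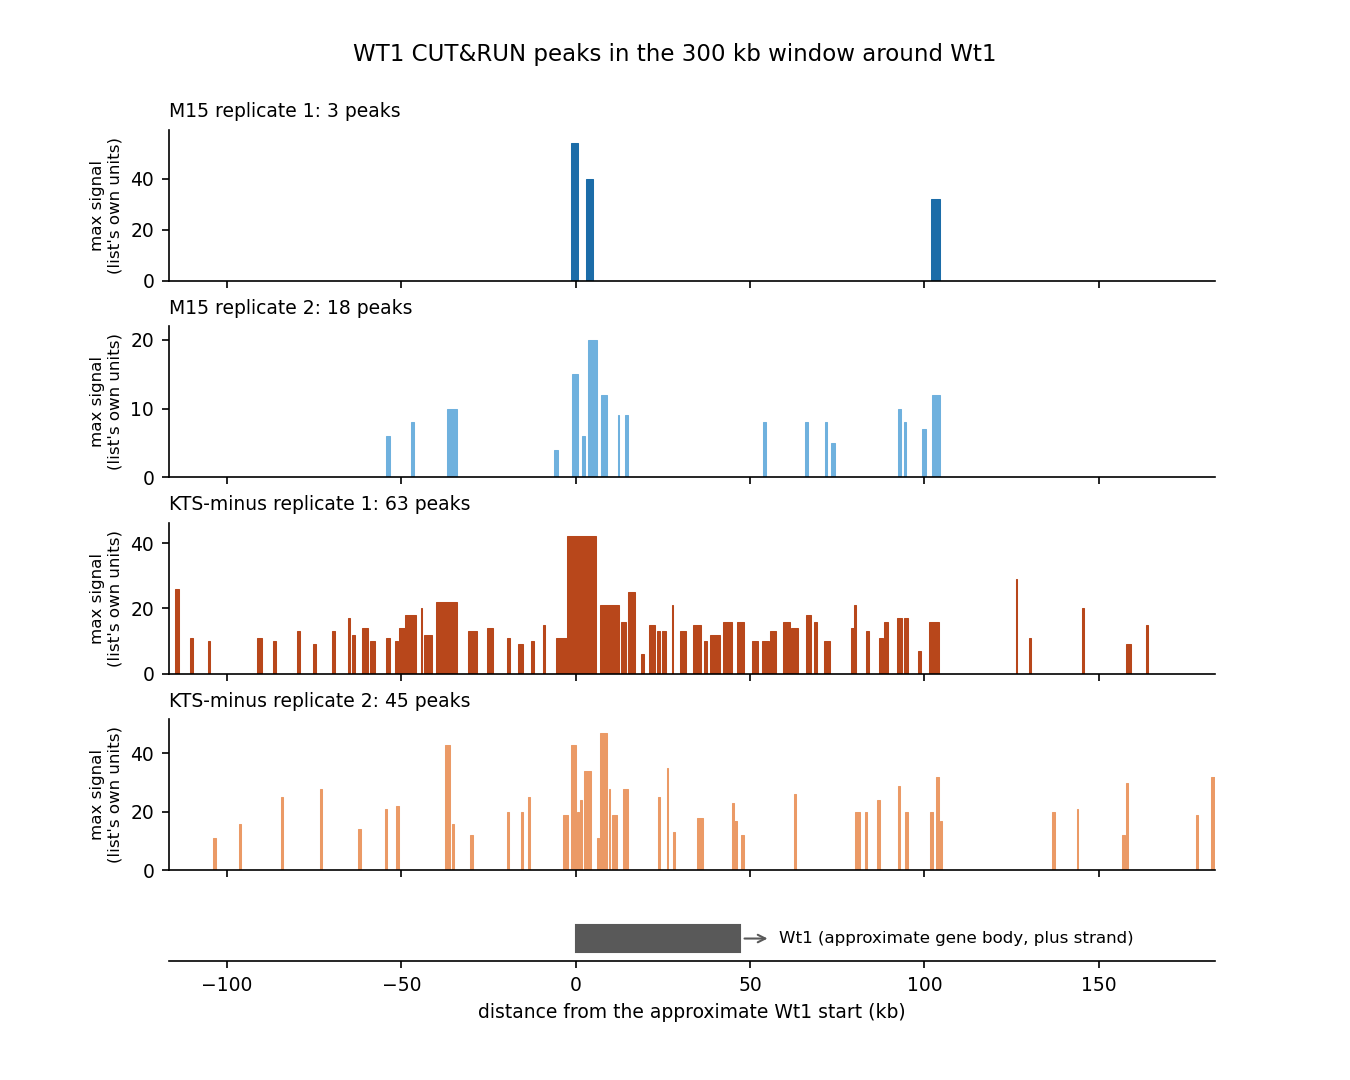
Peaks of the 4 WT1 lists along the window, as bars spanning each peak, with the height giving max signal in the list's own units and the x axis the distance from the approximate Wt1 start in kb. The 3 peaks of M15 replicate 1 stand at the start, 3.9 kb into the gene and 104.1 kb past the start. Each is overlapped by a peak in the other 3 lists. In KTS-minus replicate 1 a single peak of 8138 bp covers both the start and the place at 3.9 kb.

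The Wt1 start carried a peak in 4 of 4 libraries. In M15 replicate 1 it ran from 104965407 to 104967301 (1895 bp, max signal 54, rank 1317 in its list, which is the top 20.5%). In M15 replicate 2 it ran from 104965765 to 104967301 (1537 bp, max signal 15, rank 3636, top 5.97%). Both M15 peaks ended at the same base. KTS-minus replicate 1 had a peak of 8138 bp from 104964311 to 104972448, which is the widest of the window in any list (max signal 42, rank 505, top 0.162%). KTS-minus replicate 2 had a peak of 1512 bp from 104965390 to 104966901 (max signal 43, rank 4459, top 1.82%), and a weaker one of 586 bp just after it (max signal 20, top 55.4%). Top percents, here and below, depend on list length and so do not compare between libraries.

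The tops at the start lay close together. M15 replicate 1 reached its max signal from 104966754 to 104966755 and KTS-minus replicate 1 from 104966780 to 104966788, 30 bp farther on. M15 replicate 2 (104966613 to 104966628) and KTS-minus replicate 2 (104966628 to 104966638) had their tops 134 bp and 121 bp before that of M15 replicate 1. The order therefore did not follow the line. All 4 tops were less than 100 bp from the approximate start, a distance that cannot be read more finely with a rounded start. Within the window this peak had the highest max signal in M15 replicate 1 and KTS-minus replicate 1, and the second highest in M15 replicate 2 and, level with another peak, in KTS-minus replicate 2.

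A second site lay inside the gene, with its tops about 3.9 kb after the start. M15 replicate 1 listed it from 104969550 to 104971659 (2110 bp, max signal 40, rank 2529, top 39.3%). M15 replicate 2 listed it from 104970126 to 104972729 (2604 bp, max signal 20, rank 1675, top 2.75%), its strongest peak of the window by max and by total signal. KTS-minus replicate 2 listed it from 104969022 to 104971211 (2190 bp, max signal 34, rank 15159, top 6.2%), where it had the highest total signal of the window. The 3 tops fell within 138 bp of that of M15 replicate 1. In KTS-minus replicate 1 the place was inside the 8138 bp peak that also covers the start, whose single top is 3840 bp away, so no separate value exists for it there. Which exon or intron the site falls in was not assigned.

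Another site was downstream, 56.9 kb past the gene end and 104.1 kb past the start. M15 replicate 1 listed it from 105068627 to 105071008 (2382 bp, max signal 32, rank 3622, top 56.2%), and M15 replicate 2 from 105068856 to 105071012 (2157 bp, max signal 12, rank 6210, top 10.2%). The M15 tops coincided here, both beginning at 105070750. It was the only place in the window where the tops of both M15 lists overlapped. KTS-minus replicate 1 listed a peak from 105068075 to 105070769 (max signal 16, top 21.0%) whose top was a plateau of 1580 bp ending at 105070460. KTS-minus replicate 2 split the site into a peak from 105070106 to 105070769 (max signal 32, top 9.47%), with its top 67 bp before that of M15 replicate 1, and another from 105068330 to 105069122 (max signal 20, top 53.8%). The stronger piece and the KTS-minus replicate 1 peak ended at the same base.

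**Figure D2:**
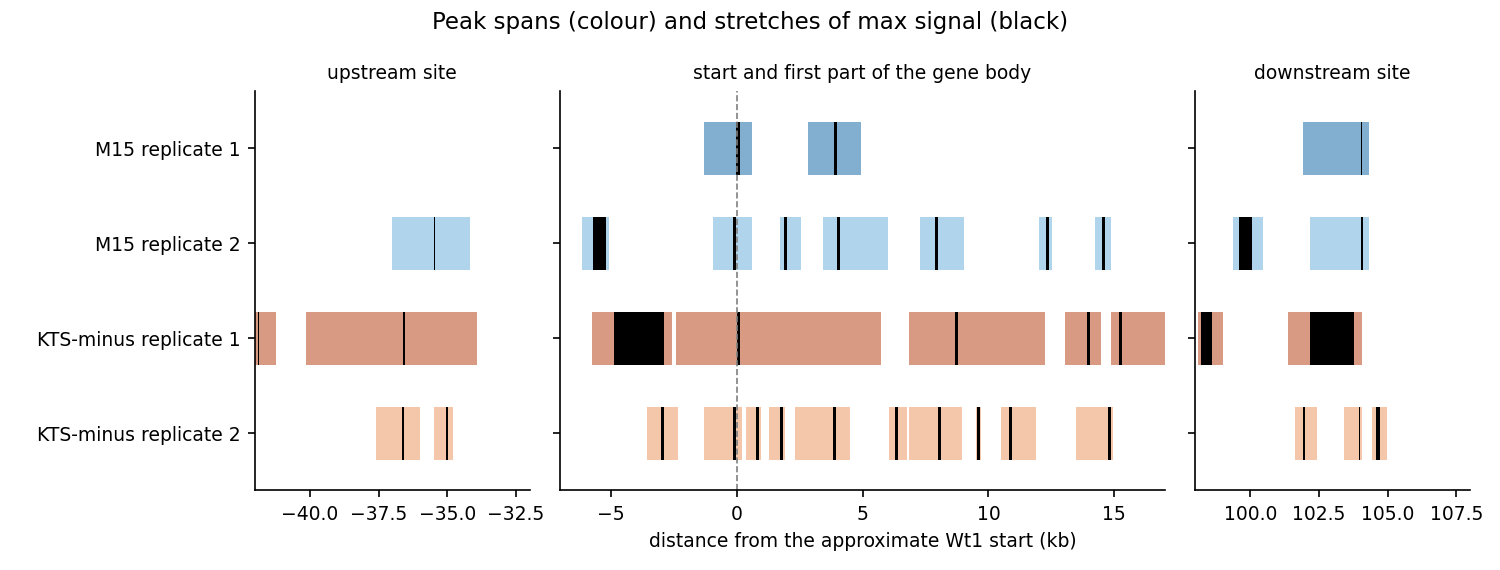
Peak spans (coloured bars) and tops (black) of each library near an upstream site, near the start and the first part of the gene, and near the downstream site, against distance from the approximate Wt1 start in kb (dashed line at 0). The 8138 bp peak of KTS-minus replicate 1 spans both the start and the gene-body site, and the downstream tops of the M15 libraries coincide.

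These were all 3 peaks of M15 replicate 1 in the window, and each overlapped a peak in the other 3 lists, as did 88.4% of its whole list. Their tops had a top within 200 bp at 3 of 3 sites in M15 replicate 2 (69.7% over its list) and in KTS-minus replicate 2 (60.9%), and at the start alone in KTS-minus replicate 1 (42.8%). Over the whole list, 95.5% of M15 replicate 1 peaks overlapped one of replicate 2, so this share is near the background. In the opposite direction 3 of the 18 M15 replicate 2 peaks overlapped replicate 1, against 10.9% of its whole list. The 3 were those with the highest total signal of M15 replicate 2 in the window: 14527 at the gene-body site, 10528 downstream and 8441 at the start. Merging overlapping peaks of all 4 lists gave 79 regions. The wide KTS-minus replicate 1 peak joined the start and the gene-body site, so 2 regions held peaks of both M15 lists, against 3 when the M15 lists were merged alone. Both of the 2 regions held peaks of both KTS-minus lists, as did 93.7% of such regions genome-wide.

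M15 replicate 2 had 2 more peaks that stood above the rest of its window peaks in total signal. One lay upstream of the gene, from 104929678 to 104932515, 35.5 kb before the start, where total signal was 8075 and max signal 10. The other lay in the gene, from 104973993 to 104975715, 7.9 kb after the start, where total signal was 7261 and max signal 12. The sixth peak by total signal had 3412. M15 replicate 1 listed neither, and both KTS-minus lists had a peak at each.

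At the upstream site KTS-minus replicate 1 had a peak of 6247 bp from 104926540 to 104932786 (total signal 41632, max signal 22, ranking 2 in the window by total). KTS-minus replicate 2 had one of 1630 bp from 104929088 to 104930717 (23570, max signal 43, ranking 3 by total). Their tops were both 36.6 kb before the start, and the top of M15 replicate 2 was 35.5 kb before it. KTS-minus replicate 2 had another, weaker peak over the site, from 104931212 to 104931924 (max signal 16), which spanned the M15 replicate 2 top and had its own top 35.0 kb before the start. With no M15 replicate 1 peak here, a shift between lines cannot be read from these tops. At the site 7.9 kb into the gene KTS-minus replicate 1 had a peak of 5422 bp from 104973539 to 104978960 (36266, max signal 21, ranking 3 by total). KTS-minus replicate 2 had one of 2110 bp from 104973547 to 104975656 (25364, ranking 2 by total), whose max signal of 47 was its highest in the window. The 4 strongest window peaks of KTS-minus replicate 2 by total signal were thus the gene-body site, the site at 7.9 kb, the upstream site and the start. In KTS-minus replicate 1 the first 3 were the peak over start and gene-body site, the upstream site and the site at 7.9 kb. The downstream site was sixth by total signal in KTS-minus replicate 1 and sixteenth in replicate 2.

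**Figure D3:**
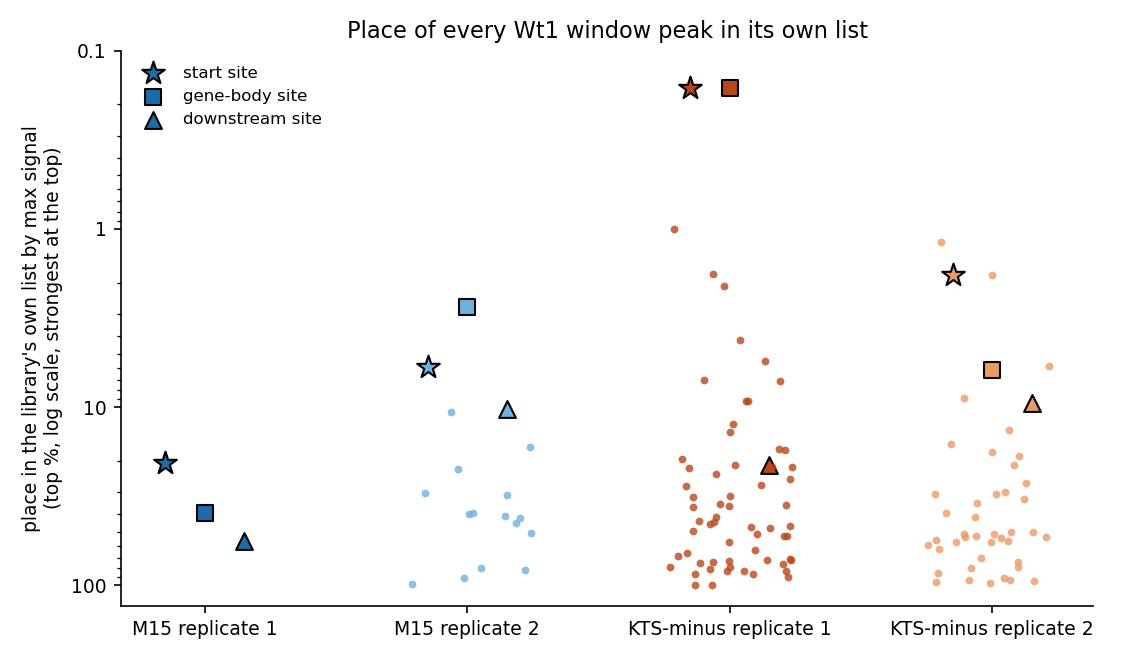
Place of each window peak in its own list by max signal, as top percent on a log axis with the strongest at the top, 1 column per library. List lengths run from 6440 to 310999 peaks, so heights do not compare between columns. Large symbols mark the 3 sites shared by the M15 replicates (star and square are the same peak in KTS-minus replicate 1, and the strongest piece is shown in KTS-minus replicate 2), and small dots the other peaks.

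The remaining 13 M15 replicate 2 peaks had total signals of 2372 to 3412. Across all 18, max signal ranged from 4 to 20 with a median of 8.0, against a list median of 7.0, and total signal from 2372 to 14527. The lowest total signal in that list is 2357, and 10 of the 18 peaks lay below 1.2 times this floor, as did 40.6% of the whole list. Of the 18 peaks, 10 overlapped both KTS-minus lists (41.9% over the whole list), 6 only KTS-minus replicate 1 (25.4% over the whole list) and 2 neither list (23.4%). The 2 overlapped no M15 replicate 1 peak either, as was the case for 23.2% of the whole list. The 2 without a KTS-minus peak ran from 105039835 to 105040896 and from 105066075 to 105067174, both downstream of the gene, reaching a max signal of 5 and 7. In the gene body M15 replicate 2 peaks reached 14.6 kb past the start, and no M15 peak lay between there and the gene end.

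KTS-minus peaks extended through the whole gene and beyond. Max signal in the window ranged from 6 to 42 in replicate 1 (median 13.0, the same as its list) and from 11 to 47 in replicate 2 (median 20.0, list median 21.0). By this measure the typical KTS-minus peak of the window was an ordinary member of its list. In the strongest 10% of the list by max signal were 10 of 63 peaks in replicate 1 and 7 of 45 in replicate 2. By total signal it was 14 of 63 and 10 of 45. Each of these shares is above 10%. The median total signal was 6123 against 5250 over the list in replicate 1, and 5532 against 5451 in replicate 2. Of the replicate 1 peaks 23 overlapped replicate 2 (36.5%, against 28.8% over its list), and of the replicate 2 peaks 29 overlapped replicate 1 (64.4%, against 42.6%). Of all 63 replicate 1 tops, with or without an overlapping peak, 6.35% lay within 200 bp of a replicate 2 top, against 7.29% over its list.

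Besides the start peak, the strongest by max signal in KTS-minus replicate 1 were one of 286 bp downstream of the gene, from 105093045 to 105093330 (max signal 29), and one upstream, from 104851692 to 104853035 (26). Neither overlapped a peak in any other list. Its strongest peak in the gene body by this measure, apart from the start peak, ran from 104981573 to 104983809 (25), 15.2 kb past the start. KTS-minus replicate 2 had its strongest downstream peaks at the M15 downstream site and at the window's edge, from 105148954 to 105150090, both with a max signal of 32. The edge peak was in no other list.

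Both KTS-minus lists had a peak in 21 of the regions. Of these, 2 also held both M15 lists, against 6.40% of such regions genome-wide. Another 6 held M15 replicate 2 only, for which no genome-wide share was counted. The other 13 held no M15 peak, a lower share than the 73.7% genome-wide. The 13 were spread over the window, with 4 upstream, 3 in the gene body and 6 downstream. The 3 in the gene body, named after their values were seen, began at 104990043, 104994159 and 105000363. They lay in the part of the gene without M15 peaks, which follows largely from how they were selected. The 4 upstream began at 104914745, 104935780, 104946895 and 104950214. Across all 13, max signal was 9 to 21 in KTS-minus replicate 1 and 12 to 30 in replicate 2, below the start peak in each list. A single-list region was the commonest kind, at 54 of 79, of which 36 came from KTS-minus replicate 1, 16 from KTS-minus replicate 2 and 2 from M15 replicate 2. The genome-wide share of single-list regions was not counted. Unshared peaks made up 57.1% of the KTS-minus replicate 1 peaks of the window, against 67.0% of its list, and 35.6% of those of KTS-minus replicate 2, against 54.8%.

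Each list was then reduced to the size of M15 replicate 1 by keeping the 6440 peaks of highest max signal, and 3 window peaks were left in each of the 4 libraries (chosen after seeing the data). In both M15 libraries these were the start, gene-body and downstream sites. In M15 replicate 2 the downstream peak and the peak 7.9 kb into the gene both had a max signal of 12. They ranked 6210 and 6475, so only the tie-break by total signal kept the first and dropped the second. The 3 left in KTS-minus replicate 1 were the peak over the start and gene-body site and the 2 peaks that no other list had, upstream at 104851692 and downstream at 105093045. Its next window peak, from 104981573 with a max signal of 25, ranked 6542 and was dropped. The 3 left in KTS-minus replicate 2 were the start, the site 8.1 kb into the gene and the upstream site 36.6 kb before the start. The start was the place held in all 4 reduced lists.

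KTS-minus peaks were sparser past the downstream site than between the outermost M15 peaks, a feature seen in the plot of coverage along the window and divided up after the data were seen. No M15 peak lay between 105071012, the end of the downstream site, and the window's end, and the next ones outside were 88661 bp and 89548 bp past the window. The first 62.2 kb of the window also held no M15 peak. KTS-minus replicate 1 had 29.0 peaks per 100 kb between the outermost M15 peaks, 19.3 before them and 6.33 after them. KTS-minus replicate 2 had 20.8, 8.03 and 8.86. In replicate 1, peaks covered 19.8% of the part before and 4.51% of the part after, against 16.4% over its whole list. In replicate 2 they covered 5.49% and 6.1%, against 7.55%. Only in replicate 1 was the part past the downstream site thus far below its list, and in replicate 2 the 2 outer parts were alike. The longest stretch without a peak in both KTS-minus lists started within 1 kb of the end of the downstream site: 22275 bp from 105070770 in replicate 1 and 31488 bp from 105071679 in replicate 2. In M15 replicate 2 it was the 78988 bp from 105071013 to the window's end, and in M15 replicate 1 the 115407 bp from the window's start to the Wt1 start peak. The parts were divided at the first and last M15 peaks, so the absence of M15 peaks from the outer parts follows from how they were chosen.

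**Figure D4:**
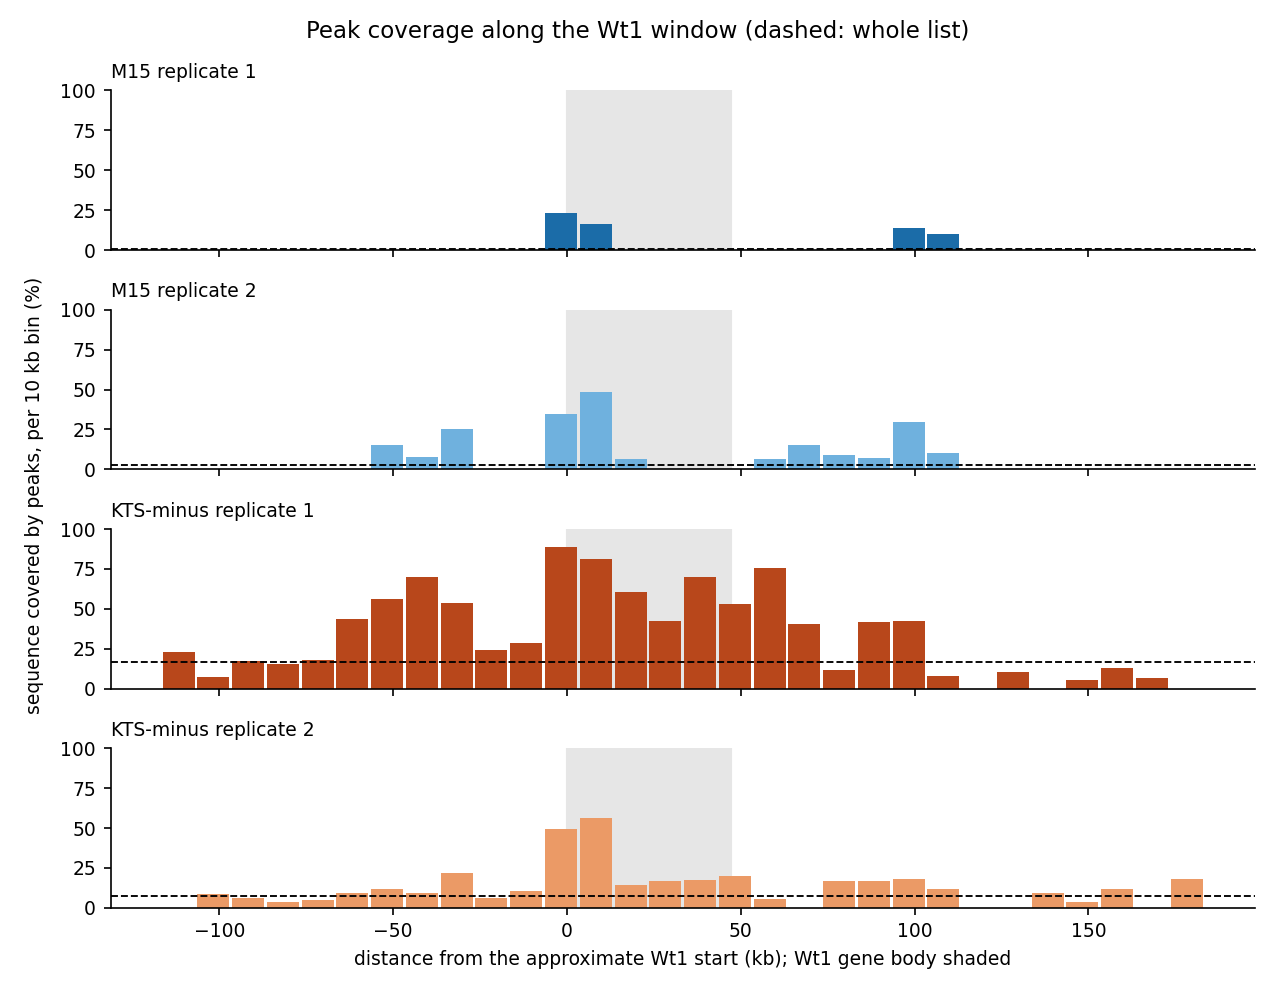
Percent of each 10 kb bin covered by peaks, for each library, against distance from the approximate Wt1 start in kb (gene body shaded, dashed line the covered percent of the whole list). The bins around the start and just inside the gene are the fullest in each KTS-minus library (88.5% and 81.1% in replicate 1, 49.2% and 56.5% in replicate 2). Past the last M15 peak the covered percent is 4.51% and 6.1% in these libraries, against 16.4% and 7.55% over their whole lists. Before the first M15 peak it is 19.8% and 5.49%, so only in replicate 1 is the part past the last M15 peak the lower of the outer parts.

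To place the locus in the genome, all chromosomes were divided into 8793 tiles of 300000 bp. At least 1 region shared by both M15 lists was present in 28.0% of tiles, and 3 or more, the number in the Wt1 window, in 9.39%. The densest tile had 17. Peaks covered 2.13% and 7.17% of the Wt1 window in M15 replicates 1 and 2, more than in 93.5% and 90.2% of tiles. In KTS-minus they covered 33.5% and 12.7%, more than in 86.7% and 85.2% of tiles. The window was thus among the more covered in each list, while 515 tiles held more shared M15 regions.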

How the data were processed

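The deposited peak lists, 1 per WT1 library, hold signal values in whole numbers: the total signal of a peak and its max signal, with the stretch that reaches it. The submitters' processing notes name SEACR 1.3 and bedtools 2.23.0 beside Bowtie2 2.2.6, SAMtools 1.3, Picard 2.5.0, FastQC 0.11.8 and build mm9. For scaling, control and threshold the settings were not given in the sources used here; read depth is unknown, so precision could not be given. Positions are counted from 1.

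Peaks sharing at least 1 bp were merged into regions. Ranks are by max signal, ties broken by total signal. Regions named were those in both M15 lists, start peaks, the 3 strongest peaks per list, the strongest per position class, the widest peak and the longest gap; the M15 replicate 2 peaks by total signal and those without a KTS-minus peak were named after their values were seen. The window, groups and lists were chosen with earlier results of these data known. No test was made. Sequences and motifs were not analysed here. Merging was tested on simulated lists of well-separated peaks of equal width, so the joining of sites by a wide peak was not tested. Python 3.11.15, numpy 2.4.6, pandas 2.3.3 and matplotlib 3.10.9 were used.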

Additional observations from a re-analysis of the deposited data

How the results depend on the processing

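A peak at the Wt1 start was found in 4 libraries under each of the 5 alternatives tried (500 bp or 2500 bp, the strongest 50% by total signal, lists of equal length, tops only). With all 4 tops less than 100 bp from the start, the 500 bp, 2500 bp and tops-only settings could not lose a peak. The 2 regions in both M15 lists stayed 2 with the strongest 50% or equal lengths, were 3 with a 50% reciprocal overlap, 1 when only tops were overlapped, and 2 to 14 with an M15 library left out (14 without replicate 1). The 2 regions in all 4 lists became 0 with tops only, 0 with a 50% reciprocal overlap counted from M15 replicate 1, 1 at equal length, and 2 to 8 with a library left out (8 without M15 replicate 1). The 21 regions in both KTS-minus lists became 3 with tops only, 6 with a 50% reciprocal overlap, 9 with the strongest 50%, 1 at equal length, and 41 to 62 with one of those libraries left out (41 without replicate 1). With 1 library of a line left out, the M15 and KTS-minus counts are simply the regions of its other library and measure no sharing. For all 4 lists, such counts are the regions in every list that remained. Merging within a line, added after seeing the data, gave 3 for M15 and 21 for KTS-minus. Shared KTS-minus regions thus depend on the overlap and threshold chosen, and the cause was not tested. No paired analysis was possible because no result comes from a test. Unknown depth and an unanalysed IgG library limit all counts.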
